A study of Mus musculus with 6 samples.

Results

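The genes described here encode subunits of AP-1, a transcription factor that binds DNA as a pair of basic leucine zipper (bZIP) proteins. They are the rows of a gene count table whose symbol is that of a FOS family gene (Fos, Fosb, Fosl1, Fosl2), a JUN family gene (Jun, Junb, Jund) or one of the bZIP genes Atf3 and Maff. All 9 members were found among 21526 gene symbols, and all 9 passed the filter on low counts, which left 14600 genes.

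RNA was measured in epithelial cells freed with EDTA from the mouse gastric corpus, the acid- and pepsinogen-secreting part of the stomach, in 3 libraries of Yap-activated gastric cancer and 3 libraries of normal stomach. The Yap-activated mice had the genotype CluCreERT2;R26rtTA;HA-Yap+, that is, a tamoxifen-dependent Cre recombinase from the Clu gene, the doxycycline-dependent activator rtTA in Rosa26, and a Yap transgene that carries an HA tag. The Normal mice were WT and carried none of these alleles, so that CreERT2, rtTA and Yap cannot be told apart as sources of a difference. Tamoxifen (2 mg a day for 5 days) and then doxycycline food (14 days) were given in both groups before tissue was taken. Ages are not given in the labels, and the labels do not say that each library came from a separate mouse, so the spread behind each p-value is that of the libraries and may be partly technical.

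JUN proteins pair with each other or with FOS proteins, whereas FOS proteins need a JUN partner to bind DNA stably. The best known binding site is the TPA response element (TRE), and pairs that hold an ATF protein prefer the related cAMP response element (CRE). Several subunit genes are immediate early genes, transcribed within minutes of growth factor or stress signals through MAP kinases, and AP-1 sites often lie beside sites of TEAD, the DNA-binding partner of Yap, in enhancers of epithelial tumours.

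Library totals ran from 25580734 to 44295619 counts in Yap-activated tissue and from 36815754 to 48440033 counts in Normal tissue. Of all genes tested, 59.5% were called in either direction, 29.8% higher and 29.7% lower. When libraries were scaled by their totals only and not by TMM, 76.6% of calls were higher against 50.0% with TMM, and the median log2 fold change of all genes was 0.50 against 0.01. The tissue label was checked on 18 corpus epithelium genes. The epithelial genes Epcam, Krt8, Krt18 and Krt19 were higher in Yap-activated tissue and 10 genes were lower, among them those of the proton pump (Atp4a, log2 fold change -9.65) and of pepsinogen C (Pgc, -9.37). With library totals alone 7 of the 18 were higher. RNA was taken from all cells together, so fewer cells of a type and less RNA per cell cannot be told apart.

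All 9 subunit genes were higher in Yap-activated tissue, with 0 lower, where 29.8% of all genes tested were called higher. In all 9, every Yap-activated library lay above every Normal library, which was the case at 33.2% of all genes tested, against 34.4% with every Yap-activated library below and 67.6% apart in either direction. By over 2-fold 8 of the 9 were called higher, against 16.9% of all genes, and by over 4-fold 5 of the 9, against 8.16%. The median log2 fold change was 3.11 over the 9 genes and 0.01 over all genes tested. It was 3.48 over the 4 FOS genes and 1.67 over the 3 JUN genes, and Atf3 and Maff lay at 3.92 and 3.27. All 9 stayed higher in each of the 15 other fits tried, which used other scalings, filters and tests or left out a library.

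**Figure D1:**
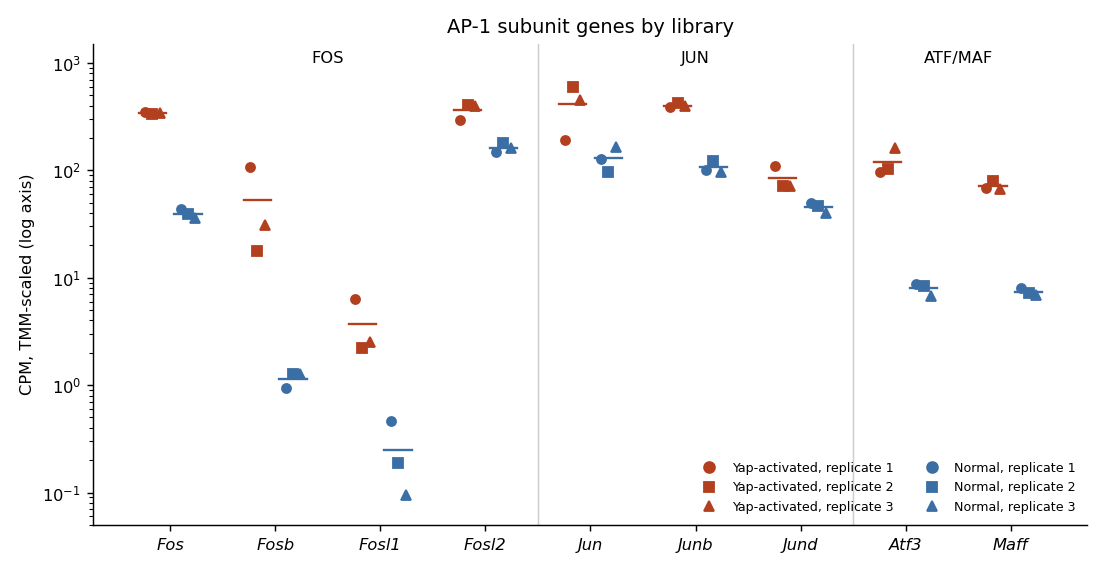
Expression of the 9 AP-1 subunit genes as TMM-scaled CPM (log axis) in each library; symbols mark the replicates and short lines the mean of 3 libraries. Yap-activated libraries (red, left of each pair) lie above Normal libraries (blue) at every gene. The gap is widest at Fosb, Atf3, Maff and Fos. It is narrow at Jun, where Yap-activated replicate 1 had 192 CPM and Normal replicate 3 had 165 CPM.

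Among the FOS genes, Fos (chromosome 12 from 85473890 to 85477273, plus strand, GRCm38), the prototype immediate early gene, had 349, 333 and 344 CPM (read counts scaled to library size) in Yap-activated replicates 1, 2 and 3, against 43.2, 39.6 and 36.04 CPM in Normal replicates 1, 2 and 3. The 3 Yap-activated libraries differed from each other by a factor of 1.05 at most, the closest agreement among the 9 genes. It rose by 3.11 on the log2 scale (SE 0.12), or 8.64-fold, with an adjusted p of 1.26e-06. Adjusted p-values throughout are from the quasi-likelihood test of edgeR, corrected by Benjamini-Hochberg over all 14600 genes.

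Fosb (chromosome 7 from 19302696 to 19310051, minus strand) encodes FosB and its shorter splice form ΔFosB, which counts per gene do not separate. It had 108, 17.9 and 31.1 CPM in Yap-activated replicates 1, 2 and 3, against 0.932, 1.26 and 1.26 CPM in the Normal replicates. Its rise was the largest of the 9, and Yap-activated replicate 1 stood 6.06 times above replicate 2. The log2 fold change was 5.50 (SE 0.79, adjusted p = 0.00108) over all libraries and 4.42 without Yap-activated replicate 1.

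Fosl1 (chromosome 19 from 5447547 to 5455946, plus strand) encodes Fra-1, a FOS protein without the transactivation domain of Fos that is known for its part in invasive carcinoma cells. It was the scarcest member, with 6.34, 2.22 and 2.53 CPM in the Yap-activated replicates against 0.466, 0.190 and 0.0948 CPM in the Normal replicates. The Normal values rest on 16, 8 and 3 reads, and the Yap-activated values on 187, 93 and 136 reads. The log2 fold change was 3.86 (SE 0.66, adjusted p = 0.00157). It was 3.24 without Yap-activated replicate 1 and 4.61 without Normal replicate 1. Ccdc85b, a gene on the opposite strand that shares 1163 bases of exon with Fosl1, had 23.5, 17.03 and 16.6 CPM in Yap-activated libraries against 17.4, 19.9 and 16.1 CPM in Normal libraries, and no source used here says whether reads were counted by strand.

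Fosl2 (chromosome 5 from 32135801 to 32157842, plus strand) encodes Fra-2, which like Fra-1 lacks that domain. It had 292, 404 and 397 CPM in the Yap-activated replicates, against 147, 178 and 162 CPM in the Normal replicates. It was the FOS gene with the most reads in Normal tissue and the smallest rise of the family, with a log2 fold change of 1.17 (SE 0.16, adjusted p = 4.55e-04), or 2.24-fold.

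Among the JUN genes, Jun (chromosome 4 from 95049034 to 95052222, minus strand), whose protein is the strongest activator of the family, had 192, 591 and 454 CPM in the Yap-activated replicates, against 127, 95.8 and 165 CPM in the Normal replicates. The groups did not overlap, but Yap-activated replicate 1 lay nearer to the Normal libraries than to the other Yap-activated libraries. The log2 fold change was 1.67 (SE 0.41, adjusted p = 0.0115), with values from 1.31 to 2.02 when any library was left out.

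Junb (chromosome 8 from 84974484 to 84978718, minus strand), whose protein activates less strongly than Jun and can oppose it, had 386, 419 and 399 CPM in the Yap-activated replicates, against 100, 122 and 96.2 CPM in the Normal replicates. Both groups were tight and well apart. The log2 fold change was 1.92 (SE 0.13, adjusted p = 1.49e-05), or 3.77-fold. Prdx2, which shares 173 bases of exon with Junb on the opposite strand, had 117, 113 and 136 CPM in Yap-activated libraries against 153, 141 and 146 CPM in Normal libraries.

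Jund (chromosome 8 from 70698949 to 70700616, plus strand), the JUN gene that resting cells commonly express, had 111, 71.1 and 71.6 CPM in the Yap-activated replicates, against 49.9, 46.7 and 40.0 CPM in the Normal replicates. It changed least of the 9, by 0.89 on the log2 scale (SE 0.19, adjusted p = 0.0046), or 1.85-fold, and by 0.66 without Yap-activated replicate 1, its highest library. The antisense genes Junos and Gm11175 share 232 bases of exon with Jun and 877 with Jund. Neither had a row of its own in the deposited counts. Their reads cannot be told apart from those of Jun and Jund if strand was not used.

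Atf3 (chromosome 1 from 191170296 to 191218039, minus strand) encodes a bZIP protein of the stress response that pairs with JUN proteins. It had 97.5, 104 and 161 CPM in the Yap-activated replicates, against 8.71, 8.36 and 6.83 CPM in the Normal replicates, a log2 fold change of 3.92 (SE 0.23, adjusted p = 8.28e-06). Maff (chromosome 15 from 79346621 to 79359076, plus strand) encodes a small Maf protein, which binds DNA without an activation domain of its own. It had 67.9, 79.4 and 66.5 CPM in the Yap-activated replicates, against 8.04, 7.27 and 6.86 CPM in the Normal replicates, a log2 fold change of 3.27 (SE 0.12, adjusted p = 1.29e-06). Both genes were low in every Normal library, and their groups lay far apart.

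**Figure D2:**
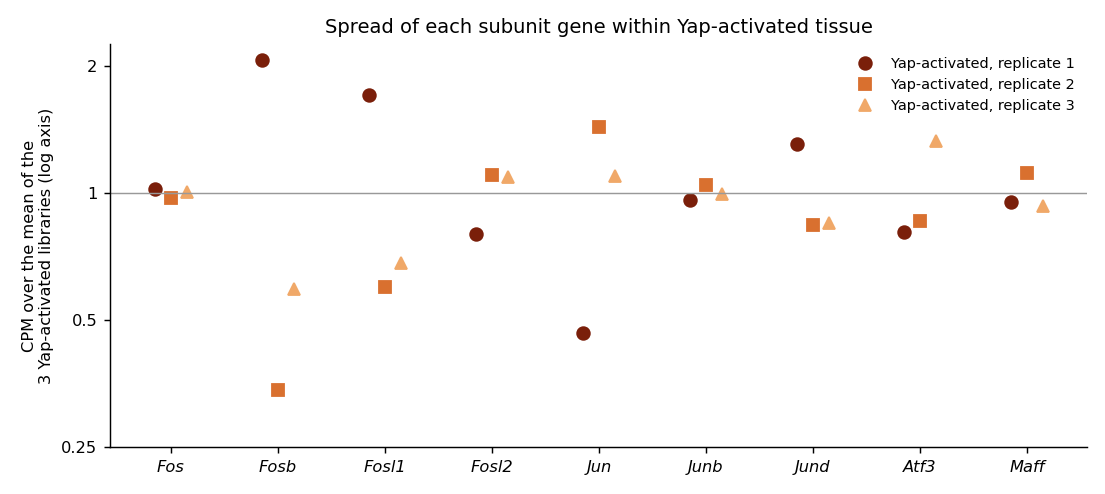
CPM of each AP-1 subunit gene in Yap-activated replicates 1, 2 and 3, divided by the mean of these 3 libraries (log axis). Fos, Junb and Maff lie close to 1 in every library, whereas replicate 1 is at 2.07 for Fosb and 1.72 for Fosl1 and at 0.467 for Jun.

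The Yap-activated libraries thus did not rank alike at all subunit genes, as the plot of levels relative to the group mean shows. Yap-activated replicate 1 was the highest of the 3 at Fos, Fosb, Fosl1 and Jund, that is at 4 of the 9 genes, and the lowest at Fosl2, Jun, Junb and Atf3, likewise 4. It also had the highest Yap1 level, with 3085 CPM against 1468 and 1651 CPM in Yap-activated replicates 2 and 3. Yap1 reads may include those of the transgene. With 3 libraries no relation between Yap1 and a subunit gene was tested.

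To compare levels between genes, CPM were divided by the length in kb of each gene's annotated exons. The order and the shares below depend on that length. For Fosl2 it was 9680 bases, against 6537 in the longest transcript, and for Fosb 6243 against 3782. For Jun and Jund both lengths were the same. By longest transcript Fosl2 and Fosb would stand higher against Jun and Jund. Close places, such as those of Fos and Fosl2 in Normal tissue, may therefore change. In Yap-activated tissue the order of the mean levels was Junb (174 CPM per kb), Fos (145), Jun (129), Atf3 (56.1), Jund (50.6), Fosl2 (37.7), Maff (27.5), Fosb (8.41) and Fosl1 (1.82). Junb was above Fos in every library, but the libraries of Fos and Jun overlapped, as did those of Jun and Atf3, Atf3 and Jund, Fosl2 and Maff, and Fosb and Fosl1. In Normal tissue the order was Junb (46.2 CPM per kb), Jun (40.6), Jund (27.3), Fos (16.8), Fosl2 (16.8), Atf3 (3.70), Maff (2.85), Fosb (0.185) and Fosl1 (0.123). There the libraries of Junb and Jun, of Fos and Fosl2, and of Fosb and Fosl1 overlapped. Fos thus stood above Jund in Yap-activated tissue and below it in Normal tissue, while Junb had the highest mean in both. Jun was above Junb in Yap-activated replicate 2 and in Normal replicate 3, so that these 2 genes overlapped in both groups.

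**Figure D3:**
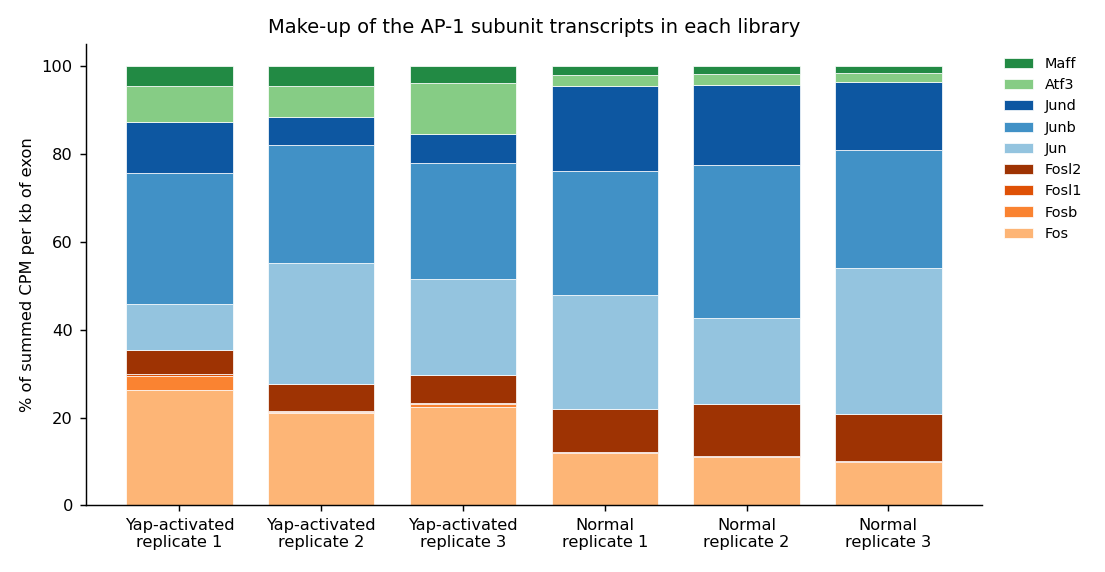
Share of each gene in the summed exon-length-scaled level (CPM per kb) of the 9 AP-1 subunit genes, in percent, for each library (FOS genes orange, JUN genes blue, Atf3 and Maff green). The orange Fos segment is larger in the 3 Yap-activated libraries (left) than in the 3 Normal libraries, and the dark blue Jund and dark orange Fosl2 segments are smaller.

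As a share of the summed level of the 9 genes, Fos made up 26.3%, 20.9% and 22.4% in Yap-activated replicates 1, 2 and 3, against 11.9%, 10.97% and 9.83% in the Normal replicates. Atf3 made up 8.87 ± 2.29% in Yap-activated tissue and 2.39 ± 0.31% in Normal tissue (SD, n = 3 each). Jund made up 11.7%, 6.30% and 6.58% in the Yap-activated replicates, against 19.4%, 18.3% and 15.4% in the Normal replicates, although its own level rose. The share of Fosl2 was 5.94 ± 0.52% in Yap-activated tissue and 10.9 ± 1.10% in Normal tissue, and that of Junb 27.7 ± 1.71% and 29.9 ± 4.16% (SD, n = 3 each). For Fos, Atf3, Jund and Fosl2 the shares of the groups did not overlap, whereas those of Junb and Jun did.

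The FOS genes together reached 199, 187 and 193 CPM per kb in Yap-activated replicates 1, 2 and 3, against 33.9, 35.5 and 32.4 CPM per kb in the Normal replicates, 5.70 times as much on average. The JUN genes together reached 294, 410 and 359 CPM per kb in Yap-activated tissue, against 113, 111 and 118 CPM per kb in Normal tissue, 3.10 times as much. The FOS to JUN ratio was 0.677, 0.457 and 0.540 in the Yap-activated replicates, against 0.299, 0.319 and 0.275 in the Normal replicates. The JUN sum exceeded the FOS sum in all 6 libraries, and the ratio was higher in every Yap-activated library than in any Normal library. The ratio is a description and carries no test. It does not depend on library scaling, since both sums come from the same library, but it does depend on exon lengths: without division by length the ratios were 1.10, 0.700 and 0.838 in Yap-activated tissue against 0.689, 0.828 and 0.662 in Normal tissue, and the groups then overlapped.

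**Figure D4:**
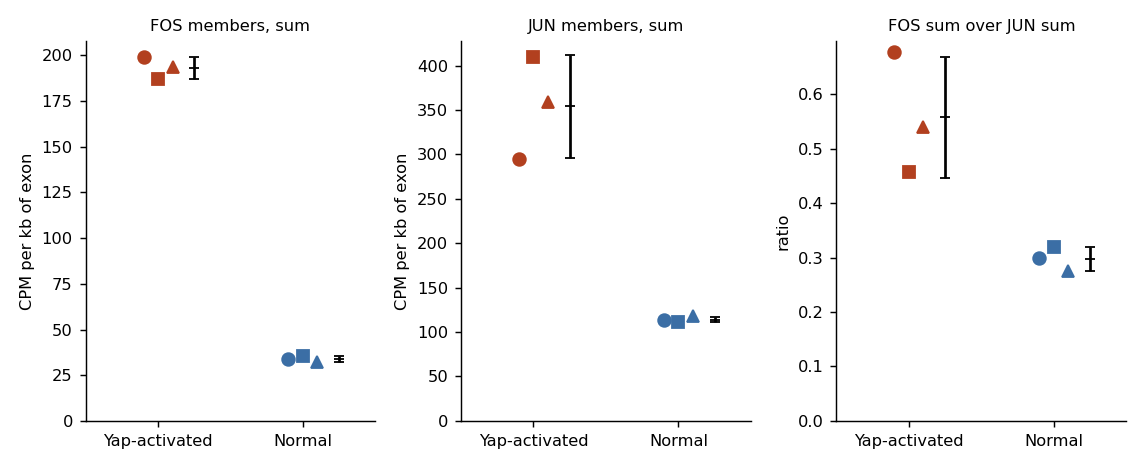
Summed level of the 4 FOS genes (left) and the 3 JUN genes (middle) in CPM per kb of exon, and the ratio of these sums (right), in each library; black marks show the mean ± SD of 3 libraries, and each axis starts at 0. Both sums and the ratio are higher in every Yap-activated library (red) than in any Normal library (blue), with a FOS to JUN ratio of 0.558 ± 0.111 in Yap-activated and 0.298 ± 0.0223 in Normal tissue.

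Within the families, the ratio of Fos to Fosl2 per kb was 4.92, 3.39 and 3.56 in the Yap-activated replicates, against 1.21, 0.914 and 0.913 in the Normal replicates. The ratio of Junb to Jund was 2.53, 4.27 and 4.03 in Yap-activated tissue, against 1.46, 1.90 and 1.74 in Normal tissue. The ratio of Jun to Junb was 0.360, 1.02 and 0.822 in Yap-activated tissue, against 0.916, 0.565 and 1.24 in Normal tissue. The groups lay apart for the first pair of ratios and overlapped for Jun to Junb.

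Promoter sequences were examined because the subunit genes rose together and several are known to respond through CRE-like and TRE-like sites near their start. RefSeq windows (GRCm38.p6) of the 250 bases upstream of a transcript start were at hand for 8 of the 9 genes, with 3 starts for Maff. The RefSeq start is not always the 5′ end of the GENCODE gene. For Atf3 it is at 191183333, far inside the gene, whose 5′ end is at 191218039, so the Atf3 window belongs to an internal start. For Jund it is at 70697739, upstream of the 5′ end at 70698949. For Fosl2 and 2 of the 3 Maff starts it is inside the gene. For Fosb it is at 19310045, just inside the end at 19310051, and for Junb at 84978748, just upstream of 84978718. The CRE core TGACG was found on either strand upstream of Fos, Fosb, Junb, Atf3 and a pair of Maff starts, and in 17.8% of all 32851 such windows. The full CRE, TGACGTCA, which contains the core on both strands, was found upstream of a Maff start and in 1.55% of windows. The TRE-like octamer TGACATCA was found upstream of Jun and of another Maff start and in 2.93% of windows. The stretches that hold these matches nearest to the start are shown 5′ to 3′ on the gene's own strand, ending at the base before the RefSeq start, with the match in capitals (CGTCA is the core read on the other strand):
Fos, chr12:85473790-85473889, plus strand: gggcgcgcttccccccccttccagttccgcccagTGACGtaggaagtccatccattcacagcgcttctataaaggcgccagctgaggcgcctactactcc
Fosb, chr7:19310046-19310145, minus strand: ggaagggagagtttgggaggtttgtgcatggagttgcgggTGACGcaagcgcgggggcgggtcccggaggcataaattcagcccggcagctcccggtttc
Junb, chr8:84978749-84978898, minus strand: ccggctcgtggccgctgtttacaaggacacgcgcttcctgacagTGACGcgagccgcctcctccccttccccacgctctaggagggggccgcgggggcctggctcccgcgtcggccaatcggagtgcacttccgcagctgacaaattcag
Atf3, chr1:191183334-191183433, minus strand: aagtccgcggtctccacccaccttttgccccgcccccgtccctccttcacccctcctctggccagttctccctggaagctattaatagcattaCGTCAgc
Jun, chr4:95052223-95052322, minus strand: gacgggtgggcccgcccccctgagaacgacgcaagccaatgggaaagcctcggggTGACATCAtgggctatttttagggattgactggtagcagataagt
Maff, chr15:79347420-79347519, plus strand: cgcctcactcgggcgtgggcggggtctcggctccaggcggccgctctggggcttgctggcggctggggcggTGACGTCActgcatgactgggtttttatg

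The core lay 66 bases before the start in Fos and 60 in Fosb, and the TRE-like octamer of Jun lay 45 bases before it. In Atf3 the core lay 7 to 3 bases before the RefSeq start. GENCODE exons cover 7 bases of the Atf3 stretch and 6 of the Fosb stretch, so the Atf3 match may lie in an exon. The TRE consensus TGANTCA, present in 6.75% of all windows, and the TEAD core GGAATG, searched on both strands and present in 12.6%, were found in none of the windows of the 8 genes. No match of any of these motifs was found in the windows of Fosl2, Jund or the first Maff start. These matches are descriptions of letters in a window of 250 bases and say nothing of binding there or farther away.

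Other bZIP genes, which can pair or compete with AP-1 subunits, moved in both directions. Of 24 tested, 14 rose, 4 fell and 6 did not pass, with a median log2 fold change of 0.63. Without Normal replicate 1 or Normal replicate 2 the number that rose was 9. Jdp2, whose protein pairs with JUN proteins and represses AP-1 sites, had 16.0, 14.7 and 17.8 CPM in Yap-activated libraries, against 3.61, 2.95 and 3.07 CPM in Normal libraries (log2 fold change 2.33, SE 0.17, adjusted p = 1.88e-05). Nfe2l3, a cap'n'collar factor that pairs with small Maf proteins, rose by 2.68 (SE 0.19). Nfe2l2, which encodes the oxidative stress factor Nrf2, another partner of small Maf proteins, fell by 0.81 (SE 0.18, adjusted p = 0.00546). Its competitor Bach1 fell by 0.79 and Nfe2l1 by 0.56. With library totals alone these 3 falls did not pass the threshold. Atf2, a partner of Jun at CRE sites, fell by 0.28 (adjusted p = 0.043), a call lost with any library left out, with DESeq2 size factors and by the DESeq2 test, and at 0.22 with library totals alone. Mafg and Mafk, the other small Maf genes, rose by 1.17 and 0.85, and were named after their values were seen.

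Genes of the MAP kinase cascade, which acts on AP-1 proteins and on transcription of their genes, stood near the median of all genes. Of 24 tested, 5 rose, 6 fell and 13 did not pass, with a median log2 fold change of -0.02, and with library totals alone 13 rose and 2 fell. Mapk8, the gene of the Jun kinase JNK1, had 66.8, 60.5 and 68.7 CPM in Yap-activated libraries, against 27.0, 25.99 and 31.4 CPM in Normal libraries (log2 fold change 1.22, SE 0.11, adjusted p = 6.13e-05). Mapk11, a p38 kinase gene, rose by 3.28, and Mapk7, Map3k8 and Map2k3 by 0.97, 1.21 and 0.42. Genes of the same kinase groups also fell, Mapk9, another JNK gene, by 0.40 and Mapk13, another p38 gene, by 0.66. These falls were named after their values were seen. The call of Map2k3 was lost without Normal replicate 2 or Normal replicate 3. Mapk3, the gene of ERK1, was at -0.02 and did not pass. These are transcript levels and do not measure kinase activity.

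Of the 4 tested genes of Srf and its Elk cofactors, which drive immediate early genes through serum response elements, 3 rose. Elk3 rose by 1.63 (SE 0.16), Elk4 by 0.81 (SE 0.09) and Srf by 0.73, while Elk1 was at 0.01 and did not pass.

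Of 20 other immediate early genes tested, 15 rose, 2 fell and 3 did not pass, with a median log2 fold change of 1.67. Dusp1, a MAP kinase phosphatase gene, had 351, 283 and 387 CPM in Yap-activated libraries, against 12.99, 10.8 and 12.5 CPM in Normal libraries (log2 fold change 4.82, SE 0.17, adjusted p = 9.67e-07). Ier3 rose by 4.20 and Klf6, the most abundant of these genes, by 2.48. The Krüppel-like factor gene Klf4 fell by 1.04 (SE 0.18) and the orphan nuclear receptor gene Nr4a2 by 1.87 (SE 0.21). Yap-activated replicate 1 was the highest Yap-activated library at 11 of these 20 genes and the lowest at 5.

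Genes known as AP-1 targets in mammalian cells were mostly higher. Of 30 tested, 28 rose, 0 fell and 2 did not pass, with a median log2 fold change of 4.77, where 29.8% of all genes were called higher. Many of these genes also answer to other factors, Yap with TEAD among them. Inhba, a subunit gene of activin, had 77.0, 62.4 and 60.6 CPM in Yap-activated libraries, against 2.65, 1.83 and 2.21 CPM in Normal libraries (log2 fold change 4.90, SE 0.18, adjusted p = 1.21e-06). Areg, the gene of the EGF receptor ligand amphiregulin, rose by 5.35 (SE 0.21). Vegfa, which encodes an angiogenic growth factor, was at 0.69 and did not pass (adjusted p = 0.166), but did without Yap-activated replicate 1 (1.04, adjusted p = 0.00259) and with library totals alone (1.19, adjusted p = 0.0324). Without Yap-activated replicate 3 it was at 0.24. Vim, the vimentin gene, was at -0.63 and did not pass, but was called lower by the DESeq2 test and with the replicate block. Mmp7, a metalloproteinase gene, had 0 reads in all Normal libraries and was at least 28.8-fold higher in Yap-activated tissue, against a floor of 3 counts over the Normal group. With Mmp7 at that bound the median was 4.75.

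Of 13 tested genes whose products oppose AP-1 or limit its transcripts or proteins, 4 rose, 3 fell and 6 did not pass, with a median log2 fold change of 0.06. With library totals alone, 7 rose and 0 fell by edgeR's test. Jdp2, given above, Batf and Batf3 were among those that rose. Zfp36, whose protein destabilises messenger RNAs with AU-rich ends, rose by 1.41 (SE 0.09). Ncor1, a corepressor gene, fell by 0.50, Men1, whose product menin binds JunD, by 0.56, and Cop1, a ubiquitin ligase gene for Jun, by 0.44.

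Of 8 tested genes of Yap, Taz, the TEAD factors and their Vgll cofactors, 7 rose and Vgll4 fell by 0.44, a call lost without Yap-activated replicate 2, without Normal replicate 3 and with library totals alone, where it was at 0.048. Tead4 rose by 5.31 (SE 0.27) and Tead2 by 2.48 (SE 0.15). Yap1, the most abundant of these genes, rose by 4.32 (SE 0.31). Its reads may include those of the Yap transgene, which only the Yap-activated mice carried.

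**Figure D5:**
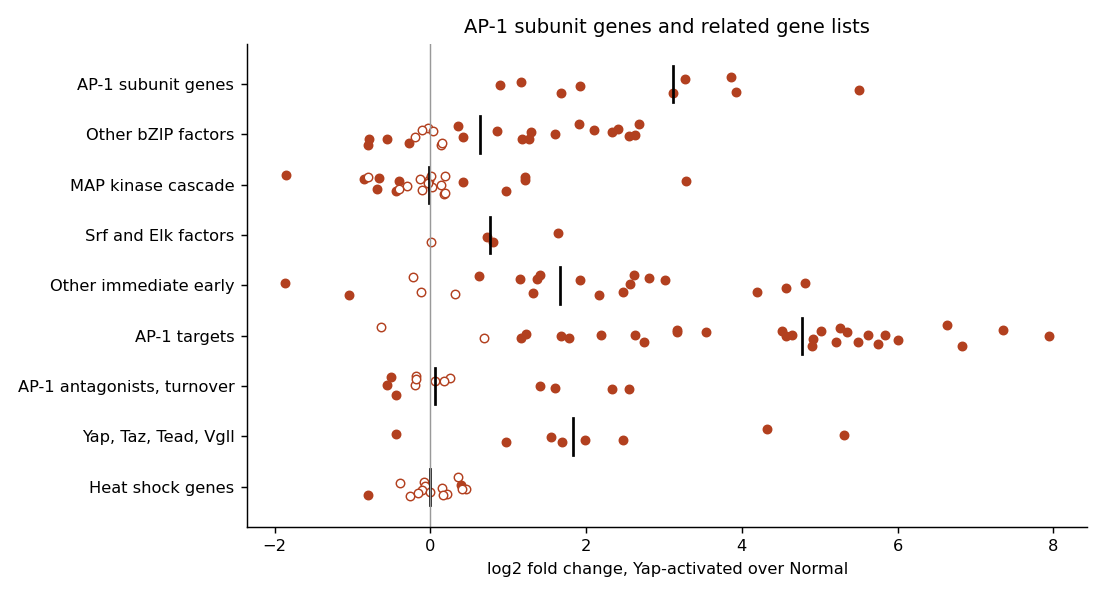
Log2 fold changes (Yap-activated over Normal) of the AP-1 subunit genes and of each related gene list; each point is a gene tested, filled where the adjusted p was under 0.05 and open otherwise, and black bars are list medians. The subunit genes and the AP-1 targets lie mostly right of 0 with medians of 3.11 and 4.77, while the MAP kinase and heat shock lists centre on 0; the point farthest right is Mmp7, whose fitted value rests on 0 reads in Normal libraries.

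Heat shock genes, which encode chaperones and can be induced by cell isolation, were also read. Several subunit genes are immediate early genes that answer stress signals too, and the heat shock list does not measure that response. The part of cell isolation in the levels of the subunit genes was not tested. Of 15 tested, Hspe1 rose by 0.39 (adjusted p = 0.048), Dnajb4 fell by 0.81 and 13 did not pass, with a median log2 fold change of -0.0043. With library totals alone, 6 rose and 0 fell by the same edgeR test. The call of Hspe1 was lost with limma voom, with no filter on low counts, with TMM scaling that left out the 50 most abundant genes, and without Yap-activated replicate 1 or 2 or Normal replicate 2 or 3. The summed level of the list ran from 3607 to 5211 CPM in Yap-activated libraries and from 4062 to 5159 CPM in Normal libraries. Most of it came from Hsp90ab1, Hspa5 and Hspa8. Hspa1b, named after its values were seen, varied more between libraries. It had 26.1, 67.2 and 27.0 CPM in Yap-activated replicates 1, 2 and 3, against 7.66, 19.1 and 61.0 CPM in the Normal replicates.

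Markers of other cell types were read beside these results, since immune cells also express AP-1 subunits. Of 15 tested myeloid genes, 11 rose and 4 did not pass (Itgam, Adgre1, C1qa and C1qb). The smallest p-values were at Cd14 (log2 fold change 4.48) and Csf3r (3.92). The largest rise was at the neutrophil gene S100a8 (6.06, SE 1.42), named after its value was seen. S100a8 had 219, 4.01 and 55.8 CPM in Yap-activated replicates 1, 2 and 3. The summed level of the myeloid list was 1309, 412 and 1134 CPM in these replicates, against 182, 182 and 181 CPM in the Normal replicates. Fosb, Fosl1 and Jund were, like the myeloid sum, highest in Yap-activated replicate 1 and lowest in replicate 2. Most genes in that sum did not share its order. Cd14, S100a8, S100a9, Itgam and Ly6g were highest in replicate 1. Ptprc, Csf1r, Adgre1, Cd68, Lyz2, C1qa, C1qb, Tyrobp, Fcer1g, Csf3r and Cxcr2 were highest in replicate 3. Fosl2, Jun, Junb and Maff were highest in replicate 2, and Atf3 in replicate 3. Fos, Junb and Maff differed by at most 1.19-fold between their highest and lowest Yap-activated library. The part of myeloid cells in the rise of the subunit genes was not tested. The neutrophil gene Ly6g had no read in any Normal library. Of 6 tested lymphoid genes, Gzma rose by 3.92 and 5 did not pass, with sums from 5.96 to 26.0002 CPM in Yap-activated and from 5.88 to 8.53 CPM in Normal libraries; the call of Gzma was lost without Normal replicate 2 or 3. Without Yap-activated replicate 2, 5 lymphoid genes rose, and with library totals alone 3.

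Of 13 fibroblast and smooth muscle genes 0 rose, 5 fell, such as Col3a1 by 1.68 and Col1a2 by 1.58, and 8 did not pass. Without Normal replicate 3, 1 rose and 3 fell, without Yap-activated replicate 2, 1 rose, and with library totals alone 2 rose and 3 fell. Their sums ran from 474 to 829 CPM in Yap-activated and from 981 to 1408 CPM in Normal libraries. Of 9 endothelial genes 0 rose, 7 fell, led by Kdr at -2.45 and Plvap at -2.37, and 2 did not pass. Their sums ran from 43.7 to 76.6 CPM in Yap-activated and from 190 to 204 CPM in Normal libraries. Of 9 tested squamous forestomach genes, Ivl, which is also in the AP-1 target list, rose by 7.35, and 8 did not pass, among them Krt4 at 3.09 and Krt13 at 2.17. Their sums ran from 56.9 to 87.4 CPM in Yap-activated libraries and were 2.21, 45.4 and 1.04 CPM in Normal replicates 1, 2 and 3. Without Normal replicate 2, the Normal library with the most squamous RNA, 8 squamous genes rose, and all 9 subunit genes were still called higher.

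Among 9859 other named genes with a mean of at least 10 CPM in the higher group, those whose profile over the 6 libraries was nearest to each subunit gene were found by the Euclidean distance between log2 CPM profiles centred on their own means. The distance takes in both the difference between groups, which most genes show, and the spread within them. The nearest to Fos were Nuak2 and Lrp8 (distances 0.27 and 0.28), to Maff Celf4 (0.25) and to Junb Kcnk1 (0.18). The nearest to Jund was Bcl2l1, at 0.07 the shortest distance found, with 119, 74.0 and 78.3 CPM in Yap-activated libraries against 51.4, 49.7 and 43.3 CPM in Normal libraries. Fosl2 was nearest to Il13ra1 (0.14), and Atf3 to Arid5a (0.48). Jun and Fosb, which varied most within Yap-activated tissue, had more distant neighbours, Btg3 at 0.54 and Reg3g at 0.85. Btg3, like Jun, was lowest in Yap-activated replicate 1 (6.10 CPM against 15.8 and 10.3 CPM in replicates 2 and 3), and Reg3g, like Fosb, was highest there (27.0 CPM against 8.66 and 9.17 CPM). Fosl1 was nearest to Fst (0.98). Among the subunit genes themselves, Fos and Maff were the closest pair (0.30), and Fosb and Jund the farthest apart (5.33).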

How the data were processed

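The authors deposited a table of raw counts, with a row for each gene symbol and a column for each of 6 libraries. The submitters' processing notes name the aligner STAR (2.4.2a), DESeq2, GRCm38 and mm10. Counting program, strand setting and annotation: not given in the sources used here. Per the labels, libraries were stranded poly(A) libraries read as paired 50 bp reads. Coordinates and exon lengths came from GENCODE M21 (GRCm38), which holds 21523 of the 21526 symbols, and promoters from RefSeq.

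The counts were tested with edgeR 4.0.16 (R 4.3.3): filterByExpr with a minimum count of 10, TMM scaling and the robust quasi-likelihood test between both groups, with Benjamini-Hochberg adjustment and a threshold of 0.05. SEs were derived from the F statistic and the log2 fold change. CPM are TMM-scaled. The fit was also run on simulated counts in which few genes were changed. That setting is unlike these data, so it did not test the scaling.

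The members and gene lists were chosen with earlier results of these data known. All members are named. Of each list, the rule took the 2 smallest p, the highest mean CPM and calls against the majority, though not every such gene is named. The 2 closest profiles were found for each member. The closest is named, and the second for Fos alone. Others are examples picked after their values were seen, and a gene this rule names is not reported here. Alternatives were other scalings, filters and tests (DESeq2 1.42.0, limma 3.58.1), non-robust dispersions, a replicate block, other gene lengths and leaving out each library.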

Additional observations from a re-analysis of the deposited data

How the results depend on the processing

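All 135 values of the 9 subunit genes under the 15 alternative fits kept their direction and their call, with the highest adjusted p at Jun (0.0464, without Normal replicate 2, edgeR quasi-likelihood test). With library totals alone, 7522 genes were higher and 2299 lower, against 4345 and 4337 with TMM. The FOS to JUN ratio without division by length was 0.879 in Yap-activated and 0.726 in Normal tissue, against 0.558 and 0.298 per exon length. With the longest transcript as the length it was 0.593 in Yap-activated and 0.348 in Normal tissue. Leaving out a library gave 0.498 to 0.608 in Yap-activated and 0.287 to 0.309 in Normal tissue. Signs turned with library totals alone at Atf2 (0.22), Mapk3 (0.48), Cop1 (0.048), Vgll4 (0.048) and Hsp90ab1 (0.42). They also turned at Mapk3 without Yap-activated replicate 1 (0.092) or Normal replicate 2 (0.053), where leaving out a library gave -0.097 to 0.092, and at Hsp90ab1 without Yap-activated replicate 3 (0.035), where it gave -0.21 to 0.035. By limma voom 7 myeloid and 6 squamous genes rose, and with the replicate block 4 squamous genes. The cause of these changes was not tested. Leaving out a library gave 3530 to 4304 genes higher and 3674 to 4273 lower. With the replicate number as a block, all 9 subunit genes were higher, as were 4239 genes, and 4322 were lower. Deviations of same-numbered libraries correlated at 0.04, 0.00 and 0.07, so the numbers were not taken to pair the libraries. Depth limits Fosl1 most, with 3 reads in Normal replicate 3.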
